A study of Mus musculus with 13 samples.

Results

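The immediate early genes described here are 10 genes whose symbols were looked up in the array's own gene names: Fos, Fosb, Fosl1, Jun, Junb, Egr1, Egr2, Atf3, Ier2 and Dusp1. Each was read by 1 probe, so 10 of the 55681 probes and 10 of the 25402 genes or transcripts tested belong to them. In mm9 coordinates of the array files, the Fosl1 probe lies at chr19:5455496-5455555 (forward strand), the Jun probe at chr4:94716928-94716987 (reverse strand) and the Fos probe at chr12:86817900-86817959 (forward strand). All 10 passed the filter on dim probes, which kept a probe if Feature Extraction placed it well above background on 2 or more arrays. Fosl1 passed on 11 arrays, Egr2 on 12 and the other 8 genes on all 13, and none of the probes was saturated on any array. The symbols, not measured values, chose the genes, although they were proposed with earlier results of these data known.

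Immediate early genes are switched on within minutes of a growth factor, stress or calcium signal, from transcription factors that are already in the cell, and their messages are short-lived. Fos, Fosb and Fosl1 encode Fos proteins that pair with the Jun proteins encoded by Jun and Junb to form the transcription factor AP-1. Egr1 and Egr2 encode zinc finger transcription factors, Atf3 a stress-induced member of the ATF family, Ier2 a small nuclear protein, and Dusp1 a phosphatase that switches MAP kinases off again. In gut tissue these genes are driven by growth factor and Wnt signalling in tumors, and they also respond to ischemia and handling while a tissue is being removed.

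Expression was measured in colorectal tissue of CPC-Apc mice, a strain that all groups share and whose genotype is CDX2P-NLS Cre with Apc+/loxP. In this model Cre recombinase under CDX2 promoter sequence deletes 1 floxed allele of the tumor suppressor Apc, only in cells where that promoter is or was active, and tumors arise spontaneously. Mice of the microRNA groups received miR-200c, miR-302 (-a, -b, -c and -d) and miR-369 (-3p and -5p), 25 µg of each, and mice of the control groups a matching amount of a negative control microRNA, which the labels of the control arrays name only by an abbreviation. Each was carried on super carbonate apatite particles in 24 tail vein injections, 3 a week from 8 weeks of age, and the colorectal tissue was divided into normal and tumor parts at sacrifice. The 13 arrays held normal tissue of control mice (n = 2), tumors of control mice (n = 7), normal tissue of microRNA mice (n = 2) and tumors of microRNA mice (n = 2). The labels do not tie samples to animals, so the p-values measure only the spread between these samples, some of which may share an animal. The arms of miR-369 are the only ones the labels name, and their mature sequences from RefSeq (GRCm38.p6) show what was injected, with the seed, bases 2 to 8, in capitals.
mmu-miR-369-5p: aGAUCGACcguguuauauucgc
mmu-miR-369-3p: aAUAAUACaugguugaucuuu

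A level below is the log2 processed signal of a gene's probe minus the log2 of the 75th percentile of its array, so levels are compared between arrays and never between genes. That percentile lay between 185 and 272 intensity units in normal tissue and between 363 and 644 in tumors. Array brightness therefore went with tissue, and the share of probes well above background was 50.7% to 57.0% per array. Without scaling between arrays, the median difference of all genes between tumors and normal tissue was 0.89 on the log2 scale, against -0.11 with it. Of the genes called in that comparison, 37.1% were higher in tumors with the percentile scaling and 21.8% with normexp background correction. Quantile normalization gave 51.6%, scaling to the median 54.0%, and no scaling 95.5%. The arrays lay on 2 slides, and both control normal arrays and only 1 control tumor were on slide 2. The epithelial marker Epcam was well above background on all 13 arrays, at levels of 3.42 to 4.49. Cdx2, the intestinal factor whose promoter drives Cre here, ran from -1.02 in control tumor 3 to 5.86. Apc levels ran from -1.49 to -0.81 without separating the groups, and the position of its probe relative to the deleted part was not known, so Apc does not check the labels. Tissue was measured in bulk, so fewer cells of a type and less RNA per cell cannot be told apart.

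The sequences just before the transcription starts of these genes are shown because they hold the short motifs through which such genes are known to be induced, above all the cyclic AMP response element, whose core is TGACG. RefSeq promoters (GRCm38.p6) were given for Jun, Fos, Fosb, Junb, Egr2, Atf3 and Dusp1, and not for Fosl1, Egr1 and Ier2. The 250 bases before the start were searched on both strands, taking any listed start of a gene. TGACG was found in 6 of these 7 genes and in 19.8% of the 27025 genes with a promoter entry, and Jun was the gene without it. The full palindrome TGACGTCA, which contains TGACG on both strands, was found in Dusp1 and in 1.77% of genes. Jun held TGACATCA, a variant of the AP-1 site that its own product is known to bind, 45 to 38 bases before its start, and 3.41% of genes held it. The CArG box bound by serum response factor was found in Egr2 and in 1.62% of genes, and the core TATAAA in Fos and in 14.3% of genes. The AP-1 site TGANTCA was found in 0 of the 7 and in 7.82% of genes. These matches are descriptions of the letters in this window and say nothing about binding in these tissues. In the sequences below, capitals mark TGACG on either strand, TGACATCA in Jun, and both TGACG and the CArG box in Egr2.
Jun (chr4:95052223-95052472, reverse strand): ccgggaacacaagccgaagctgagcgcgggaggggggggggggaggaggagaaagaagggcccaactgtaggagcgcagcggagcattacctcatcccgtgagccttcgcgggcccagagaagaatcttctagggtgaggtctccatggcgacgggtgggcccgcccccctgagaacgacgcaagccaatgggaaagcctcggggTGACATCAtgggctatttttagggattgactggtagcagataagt
Fos (chr12:85473640-85473889, forward strand): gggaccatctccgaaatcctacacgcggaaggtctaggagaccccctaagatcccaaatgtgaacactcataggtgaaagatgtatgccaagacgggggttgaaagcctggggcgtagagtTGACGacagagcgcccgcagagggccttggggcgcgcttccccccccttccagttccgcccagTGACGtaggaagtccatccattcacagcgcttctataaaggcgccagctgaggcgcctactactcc
Dusp1 (chr17:26508473-26508722, reverse strand): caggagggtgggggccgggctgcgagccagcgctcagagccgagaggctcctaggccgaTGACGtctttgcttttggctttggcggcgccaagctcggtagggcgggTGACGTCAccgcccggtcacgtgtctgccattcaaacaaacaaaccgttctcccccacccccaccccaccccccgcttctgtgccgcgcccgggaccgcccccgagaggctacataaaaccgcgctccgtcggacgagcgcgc
Egr2 (chr10:67537619-67537868, forward strand): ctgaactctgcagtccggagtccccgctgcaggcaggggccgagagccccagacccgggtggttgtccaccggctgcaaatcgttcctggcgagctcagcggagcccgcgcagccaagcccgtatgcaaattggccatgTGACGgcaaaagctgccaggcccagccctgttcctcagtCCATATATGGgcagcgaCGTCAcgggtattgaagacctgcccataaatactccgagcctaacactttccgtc
Atf3 (chr1:191183334-191183583, reverse strand): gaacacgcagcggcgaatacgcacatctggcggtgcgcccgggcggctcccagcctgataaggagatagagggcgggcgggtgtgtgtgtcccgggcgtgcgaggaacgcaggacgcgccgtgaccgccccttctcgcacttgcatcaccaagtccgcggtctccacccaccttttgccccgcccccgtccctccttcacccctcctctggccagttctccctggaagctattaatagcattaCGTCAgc

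**Figure D1:**
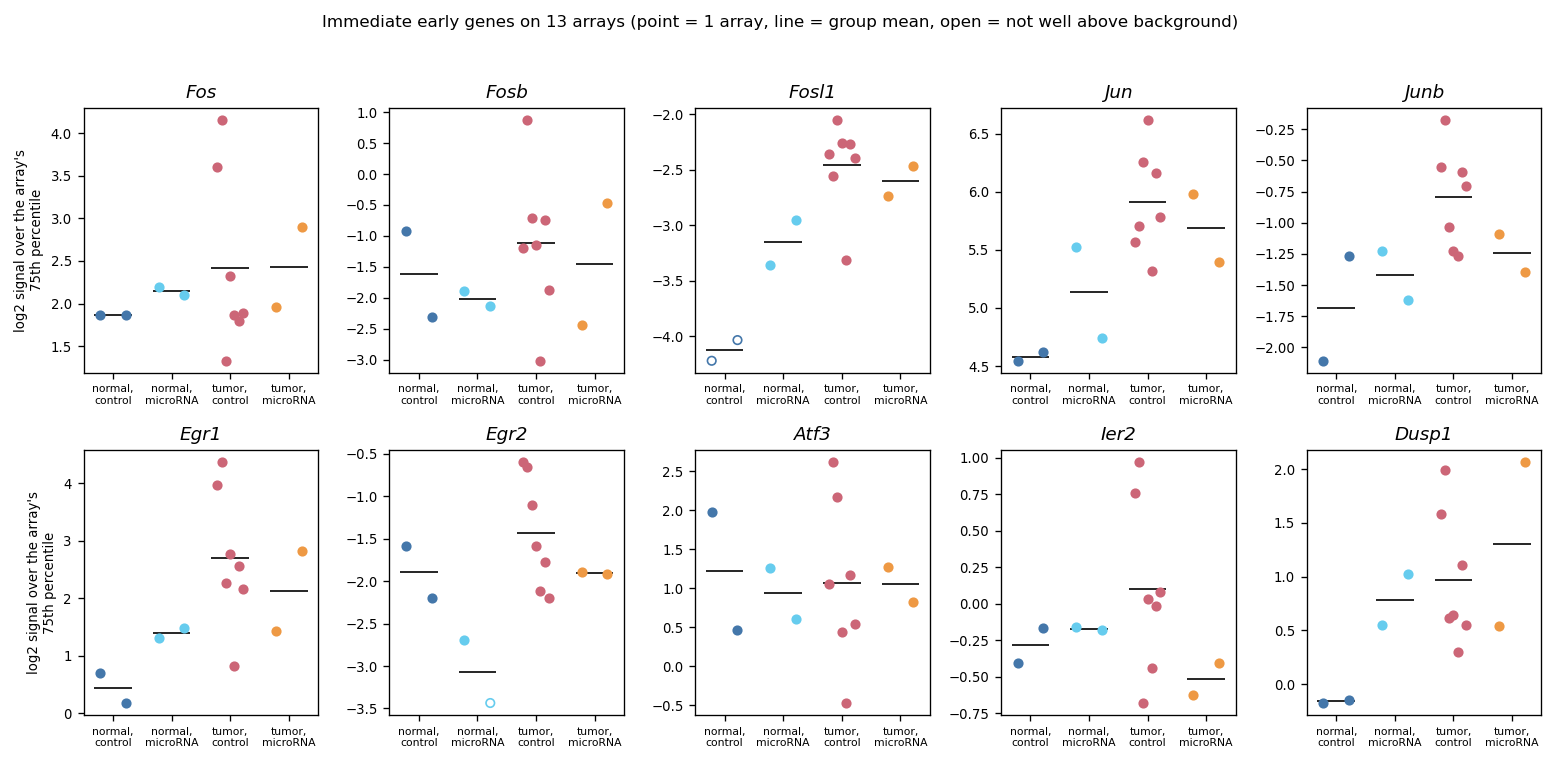
Levels of the 10 immediate early genes on each of the 13 arrays, as log2 signal over the array's 75th percentile, with 1 panel per gene and its own axis. Points are arrays, lines are group means and open points were not well above background. Tumor arrays overlap normal arrays in every panel, and the 7 control tumors spread widely for Fos, Fosb, Egr1 and Atf3.

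Between tumors and normal tissue, Fosl1, Jun and Egr1 rose, and the other 7 immediate early genes were not called. Fosl1, a Fos protein known for its part in invasive growth, had a fitted difference of 2.35-fold between the 9 tumors and the 4 normal samples, Jun of 2.04-fold and Egr1 of 3.17-fold, over both treatments. The size for Fosl1 is uncertain, since its probe was not well above background on 2 of the 4 normal arrays. That is 3 of 10 genes called higher, where 11.7% of all 25402 genes were called higher in this comparison. Called lower were 0 of 10, where 19.8% of all genes were called lower. The median difference of the 10 genes was 0.67 on the log2 scale beside -0.11 for all genes, and 9 of 10 lay above 0 beside 43.6% of all genes. The gap between these 2 medians was 0.79 with the percentile scaling, 0.66 with quantile normalization and 0.50 with normexp background correction. Scaling to the median and no scaling shift all genes of an array alike, so they cannot change this gap. None of the 10 had every tumor above every normal sample, a separation that 6.71% of all genes showed. In control mice alone 5 of the 10, Fosl1, Jun, Junb, Egr1 and Dusp1, had all 7 tumors above both normal samples, beside 13.8% of all genes. Calls are adjusted p-values under 0.05 from limma with Benjamini-Hochberg adjustment over all genes tested.

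The Fosl1 level was -4.22 and -4.03 in the control normal samples, where it was not well above background, and -3.35 and -2.95 in the microRNA normal samples. In the 7 control tumors it ran from -3.31 over a median of -2.36 to -2.05, and it was -2.74 and -2.46 in the microRNA tumors. Of the 9 tumors, 8 lay above all 4 normal samples, and control tumor 5 fell among the microRNA normal samples. The difference over both treatments was 1.23 (SE 0.27, adjusted p = 0.0060), and limma called it with any 1 array left out. On slide 1 alone it was 0.49, which is only microRNA tumor 2 against microRNA normal 2, the 1 normal sample there. In control mice the fitted difference was 1.67 (SE 0.29, adjusted p = 0.0054), which is 3.18-fold. Its size is uncertain, since the probe was not well above background in the control normal samples. The call was lost without control normal 1, a fit that leaves 1 control normal sample. The Fosl1 probe was dim, with processed signals of 9.93 to 122 intensity units. With normexp background correction, which adds an offset of 50 to every signal, its difference was -0.04 over both treatments and 0.05 in control mice. Neither was called.

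Jun is the principal partner of the Fos proteins. Its level was 4.55 and 4.62 in the control normal samples, 4.74 and 5.52 in the microRNA normal samples, and 5.39 and 5.98 in the microRNA tumors. In the control tumors it ran from 5.32 over a median of 5.78 to 6.62, so every control tumor exceeded both control normal samples. The normal sample with the highest Jun, microRNA normal 1, lay above control tumor 5 and microRNA tumor 2. The difference over both treatments was 1.03 (SE 0.27, adjusted p = 0.0154) and that in control mice 1.33 (SE 0.34, adjusted p = 0.0228). Jun kept its call with the slide as a block, at 1.17 (adjusted p = 0.0162), but lost it without control normal 1 (0.90, adjusted p = 0.0739) or control normal 2 (0.93, adjusted p = 0.0758). On slide 1 alone its difference was 0.65, which is only microRNA tumor 2 against microRNA normal 2, the 1 normal sample there. On slide 2 alone, which holds 2 tumors, it was 1.15.

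Egr1 is induced through serum response factor by the ERK pathway. Its level was 0.69 and 0.18 in the control normal samples and 1.32 and 1.48 in the microRNA normal samples. The control tumors ran from 0.81 over a median of 2.56 to 4.37, the widest range but that of Fosb, and the microRNA tumors stood at 1.43 and 2.82. Of the 9 tumors, 7 lay above all normal samples. The difference of 1.67 (SE 0.59, adjusted p = 0.0489) was the largest of the 10 and sat at the edge of the threshold. Leaving out 1 array ended the call for 10 of the 13 arrays, with adjusted p-values up to 0.204 and differences of 1.33 to 2.01. With the slide as a block the Egr1 difference was 1.21 (adjusted p = 0.170). In control mice it was 2.27 (SE 0.74, adjusted p = 0.0508), and it passed without control tumor 5, at 2.58 (adjusted p = 0.0200), without control tumor 3, at 2.34 (adjusted p = 0.0473), and under 8 of 13 other settings.

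Dusp1, Junb and Egr2 came next in size and were not called. The Dusp1 level was -0.18 and -0.15 in control normal samples, 0.55 and 1.02 in microRNA normal samples, 0.29 to 1.99 with a median of 0.64 in control tumors, and 0.54 and 2.06 in microRNA tumors. All 7 control tumors thus lay above both control normal samples, while microRNA normal 2 lay above 5 of the 9 tumors. Its difference over both treatments was 0.89 (SE 0.36, adjusted p = 0.0750). Dusp1 was called with median scaling, at 1.04 (adjusted p = 0.0360), and without microRNA tumor 1, at 1.17 (adjusted p = 0.0218).

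The Junb level was -2.11 and -1.27 in control normal samples, -1.23 and -1.62 in microRNA normal samples, -1.27 to -0.18 with a median of -0.70 in control tumors, and -1.09 and -1.40 in microRNA tumors. The 2 tumors that did not exceed every normal sample were control tumor 5 and microRNA tumor 2. Its difference was 0.61 (SE 0.26, adjusted p = 0.0843). Egr2, the relative of Egr1, stood at -1.59 and -2.20 in control normal samples and lower, at -2.70 and -3.44, in microRNA normal samples, the second of which was not well above background. Its control tumors ran from -2.20 over a median of -1.59 to -0.60, across the control normal values, and both microRNA tumors were at -1.89 and -1.91, above their normal samples. The Egr2 difference over both treatments was 0.73 (SE 0.34, adjusted p = 0.115). Some file-name numbers occur in both tissues: microRNA normal 1 and tumor 1 share a number, as do microRNA normal 2 and tumor 2, and control normal 2 and control tumor 3. Egr2 was higher in the tumor of each of these 3 pairs, and so were Fosl1, Jun, Junb, Egr1 and Atf3. Fos, Fosb, Ier2 and Dusp1 were not higher in all 3. Atf3 and Dusp1 were nearly equal in microRNA normal 1 and tumor 1, at 1.26 and 1.27 for Atf3 and 0.55 and 0.54 for Dusp1. Such small differences give no direction. How many of all genes were higher in all 3 pairs was not counted, and no label says what the file-name numbers mark. With the number as a random block the Egr2 difference was 0.91 and called (adjusted p = 0.0228).

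Fos, Fosb, Ier2 and Atf3 differed between tissues by less than their spread among tumors. The Fos level was 1.86 in both control normal samples and 2.19 and 2.10 in the microRNA normal samples. Its control tumors ran from 1.33 over a median of 1.88 to 4.16, and its microRNA tumors stood at 1.96 and 2.90. The lowest Fos of all 13 arrays was thus in a tumor, control tumor 3, and the Fos difference was 0.45 (95% confidence interval -0.59 to 1.49, adjusted p = 0.493). Fosb, which is known to outlast Fos after repeated stimulation, ran from -3.02 to 0.88 in control tumors with a median of -1.15. It stood at -0.92 and -2.30 in control normal samples, -1.89 and -2.14 in microRNA normal samples, and -2.44 and -0.47 in microRNA tumors. Its difference was 0.52 (95% confidence interval -0.79 to 1.83, adjusted p = 0.529).

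The Ier2 level was -0.40 and -0.16 in control normal samples, -0.16 and -0.18 in microRNA normal samples, -0.68 to 0.97 with a median of 0.03 in control tumors, and -0.63 and -0.41 in microRNA tumors. Its difference was 0.10 (95% confidence interval -0.55 to 0.74, adjusted p = 0.816), and both microRNA tumors lay below all normal samples. The Atf3 level was 1.98 and 0.46 in control normal samples, 1.26 and 0.61 in microRNA normal samples, -0.47 to 2.62 with a median of 1.05 in control tumors, and 1.27 and 0.83 in microRNA tumors. Control normal 1 exceeded 7 of the 9 tumors, and the Atf3 difference was -0.04 (95% confidence interval -1.16 to 1.07, adjusted p = 0.956). With normexp background correction the Ier2 difference was -0.01 and the Atf3 difference 0.04, and with median scaling Atf3 stood at 0.10, so no direction is given for either. On slide 2 alone Ier2 stood at -0.43 and Fos at -0.41, and Fos had no settled direction either.

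**Figure D2:**
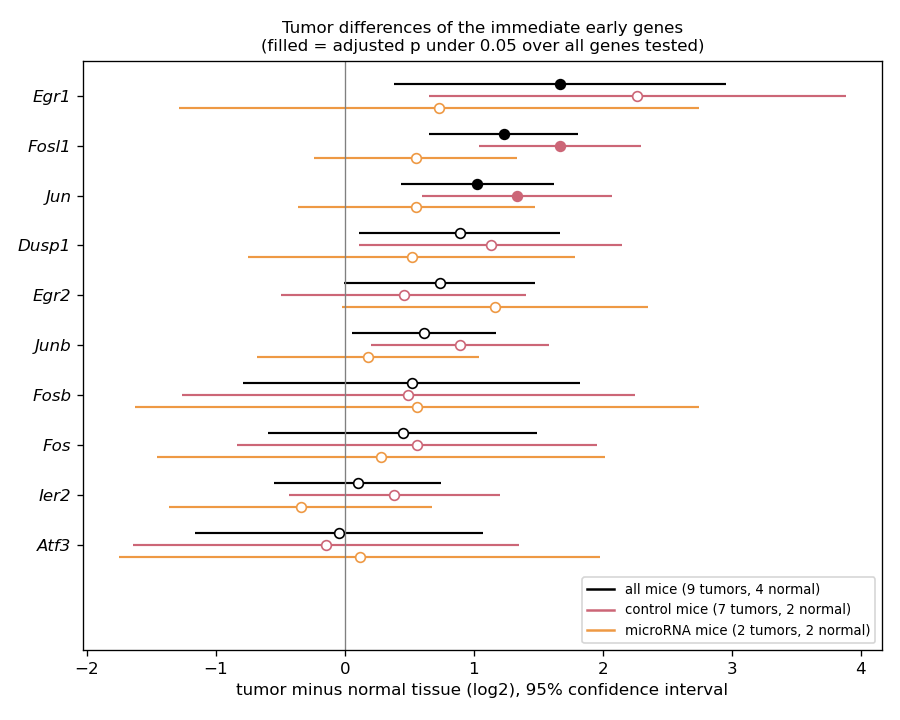
Tumor minus normal tissue for each of the 10 genes on the log2 scale, with 95% confidence intervals, over all mice, in control mice and in microRNA mice. Filled points passed an adjusted p of 0.05. Fosl1, Jun and Egr1 stand furthest right at 1.23, 1.03 and 1.67, and every interval for the microRNA mice includes 0.

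Within control mice, 2 of the 10 genes, Fosl1 and Jun, were called higher in tumors, beside 7.94% of all genes. Without control tumor 5 the count was 4 (Fosl1, Jun, Junb and Egr1), where 2018 of all genes were called higher and 3030 lower. With any 1 array left out, the difference ran from 1.57 to 1.81 for Fosl1 and from 1.21 to 1.43 for Jun. The calls rest on 2 control normal samples. Leaving out either leaves 1, so calls are not counted there. With 1 array of a group left, that array is assumed to vary like the others. Within the microRNA mice 0 of 10 were called higher, beside 1.44% of all genes. There the largest differences were those of Egr2 at 1.16 (SE 0.54, adjusted p = 0.234) and Egr1 at 0.73 (SE 0.92, adjusted p = 0.690), and Fosl1 and Jun both stood at 0.55. Limma gave an unadjusted p under 0.05 to 5 of the 10 genes in control mice, beside 38% of all genes, and to 0 in microRNA mice, beside 22.1% of all genes. The microRNA mice gave only 2 samples of each tissue, which limits the precision there.

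The difference between these tumor effects was tested directly and was called for 0 of the 10 genes and for 0.291% of all genes. The tumor difference was smaller in the microRNA mice for 7 of the 10 genes and larger for Fosb, Egr2 and Atf3. Egr1 differed most, by -1.54 (95% confidence interval -4.12 to 1.05, adjusted p = 0.829). Fosl1 followed with -1.12 (adjusted p = 0.796), a value whose size is uncertain because the control normal samples were not well above background. It was the only 1 of the 10 with an unadjusted p under 0.05, beside 6.07% of all genes.

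Treatment with the microRNA combination, the question the study addressed, gave no called change of an immediate early gene in either tissue. Among tumors 0 of 10 genes were called, beside 0.00394% of all genes, which is 1 gene, and 553 genes had an unadjusted p under 0.05. The differences between the 2 microRNA tumors and the 7 control tumors ran from -0.62 for Ier2 (95% confidence interval -1.43 to 0.20) to 0.33 for Dusp1 (95% confidence interval -0.68 to 1.35). Egr1 stood between, at -0.57 with an interval of -2.19 to 1.04, so the interval reaches further below 0 than above it. The microRNA tumors themselves differed from each other: microRNA tumor 2 had the highest Dusp1 of all 13 arrays, and its Fosb (-0.47 against -2.44), Egr1 (2.82 against 1.43) and Fos (2.90 against 1.96) exceeded those of microRNA tumor 1.

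In normal tissue 0 of 10 genes were called between treatments, beside 0.535% of all genes, and 1 of the 10 had an unadjusted p under 0.05, beside 1387 of all genes. The gene was Fosl1, whose fitted difference was 0.97 (SE 0.36, adjusted p = 0.683), or 1.96-fold, higher in microRNA normal samples. Its size is uncertain, since the probe was not well above background in the control normal samples. Under other settings the Fosl1 difference ran from 0.22 to 1.03. Egr1 differed by 0.96 (adjusted p = 0.962), Dusp1 by 0.95 (adjusted p = 0.962) and Egr2 by -1.18 (adjusted p = 0.916), and in each the pairs of samples did not overlap. That held for 6 of the 10 genes and for 40.3% of all genes. The normal pieces also differed in what they contained. Markers of squamous epithelium and skin stood at 2.27 and 3.90 in the control normal samples against -0.96 and -0.80 in the microRNA normal samples, as the mean of 9 genes after each gene's own mean over the 13 arrays was subtracted. On the same scale 7 small intestine markers stood at 0.67 and 1.80 against 4.50 and 5.28. Of the squamous markers 5 were called lower in microRNA normal tissue, and of the intestinal markers 2 were called higher; the part of either in the levels of the early genes was not tested.

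**Figure D3:**
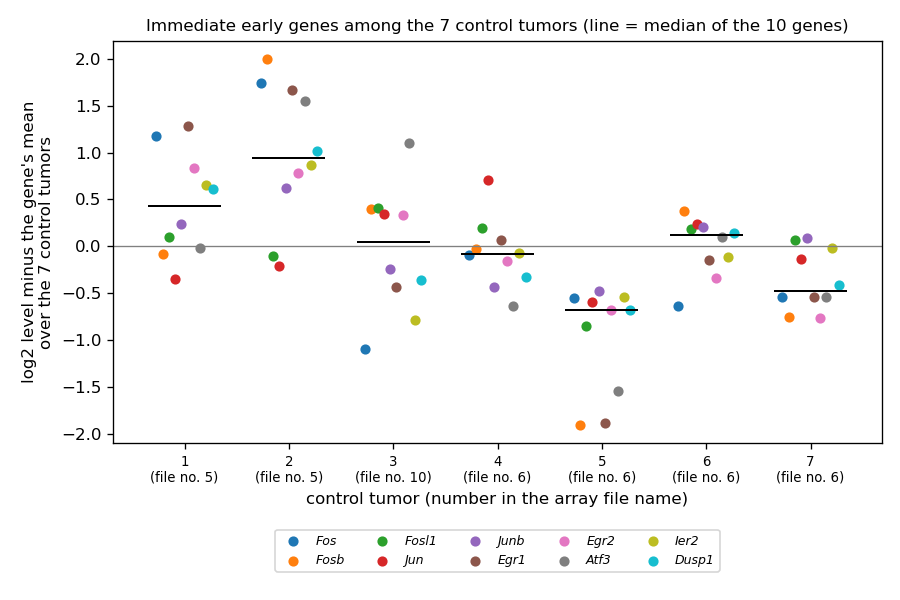
Level of each immediate early gene in the 7 control tumors, on the log2 scale after the gene's mean over these 7 arrays was subtracted. Points are genes and lines the median of the 10 genes in a tumor. Control tumors 1 and 2, which share the number 5 in their file names, stand high for Fos, Egr1, Egr2, Ier2 and Dusp1, and control tumor 5 lies below its mean for all 10 genes.

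Several of these genes varied widely among tumors of the same group. Over the 7 control tumors the SD of Fosb was 1.19, of Egr1 1.19, of Atf3 1.06 and of Fos 1.05 on the log2 scale, larger than for 90.9% to 93.8% of all genes. The median SD of the 10 genes was 0.64, beside 0.42 for all genes, and 4 of 10 exceeded 1, beside 10.5% of all genes. Fosl1, Jun and Junb varied least, with SDs of 0.41, 0.45 and 0.40. The Fos probe is printed in 10 spots on each array. Their log2 mean signals had an SD of 0.07 to 0.11, against the Fos SD of 1.05 over the 7 control tumors.

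Control tumor 2 had the highest level of 7 of the 10 genes (Fos, Fosb, Junb, Egr1, Atf3, Ier2 and Dusp1), whereas 11.3% of all genes were highest there. Control tumor 5 had the lowest level of 7 of the 10 (Fosb, Fosl1, Jun, Junb, Egr1, Atf3 and Dusp1), whereas 12.8% of all genes were lowest there. Control tumor 1 was second to control tumor 2 for Fos, at 3.60 against 4.16, and the other 5 control tumors had Fos between 1.33 and 2.33. The same order held for Egr1, at 3.98 and 4.37 against 0.81 to 2.77. Fosl1 and Jun did not follow it: control tumor 2 had a Jun of 5.71, below control tumors 3, 4, 6 and 7, and a Fosl1 of -2.56, the second lowest of the group. Without control tumors 1 and 2, the median SD of the 10 genes was 0.47 beside 0.42 for all genes, and that of Fos fell to 0.36, while Fosb and Atf3 kept SDs of 0.97 and 0.98.

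Control tumors 1 and 2 carry the number 5 in their array file names, control tumors 4 to 7 the number 6 and control tumor 3 the number 10, and no label says what these numbers mark. Tumors of 1 number still differed widely: among the 4 with the number 6, Egr1 ran from 0.81 to 2.77 and Fosb from -3.02 to -0.74. Some cell type markers also set control tumors 1 and 2 apart from the other 5, while heat shock genes did not. The mean of 8 smooth muscle markers, each after subtraction of its own mean over the 13 arrays, was 0.20 and 0.56 in control tumors 1 and 2 and -2.32 to -1.25 in the other 5, beside 1.26 to 2.54 in normal tissue. The mean of 12 heat shock genes, which also respond to stress of the tissue, was -0.19 and -0.30 in control tumors 1 and 2, within the range of -0.66 to 0.60 over all control tumors, and lowest in control tumor 5. On the same scale the mean of 7 neutrophil markers was 0.30 and 0.22 in control tumors 1 and 2 and 1.08 to 1.80 in the other 5. That of 5 skeletal muscle markers was -0.48 and -0.52 against -1.60 to -0.87. What part of the early gene levels these cells or stress of the tissue account for was not tested. Leaving out control tumors 1 and 2, or 2 and 5, after their values were seen, left 3 of 10 genes called over both treatments, in both cases Fosl1, Jun and Egr1. Of all 25402 genes, 3167 were called higher and 5077 lower in the first of these fits. In the second 2972 were called higher and 4921 lower.

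Markers of other cell types also differed between tumors and normal tissue. Of all genes tested, 11.7% were called higher and 19.8% lower in this comparison. All 8 smooth muscle, all 7 tested adipocyte, all 5 tested skeletal muscle and all 6 T cell markers were called lower in tumors, as were 5 of 9 squamous, 6 of 9 epithelial, 7 of 7 tested small intestine and 2 of 6 B cell markers. Of the neutrophil markers 6 of 7 tested were called higher, of the fibroblast markers 4 of 8, and of the macrophage and endothelial markers 1 of 8 and 1 of 7. The neutrophil mean, on the same subtracted scale, was -2.44 to -1.73 in normal tissue and -0.11 to 1.80 in tumors. The part of these cells in the rise of Fosl1, Jun and Egr1 was not tested. Of 12 heat shock genes, 0 were called higher and 2 lower, Hspa1a by 1.55 and Hspa8 by 0.47 on the log2 scale, and the median difference of the list was -0.08.

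The 10 genes did not follow a single pattern over the 13 arrays. Likeness was measured as the root mean square difference between the log2 levels of a pair of genes, after each gene's own mean over the 13 arrays was subtracted. Of the 45 pairs, Junb and Ier2 were closest at 0.38, with Fosl1 and Jun also at 0.38, then Fos and Ier2 at 0.46 and Fos and Dusp1 at 0.50. Egr1 and Atf3 were the farthest pair at 1.14. Against all genes with an official symbol outside the 10, no gene came nearer to Fos than Ier2 did, and 1 gene, Nr4a1, came nearer to Egr1 than Dusp1 did. For Jun, in contrast, 334 genes were nearer than Fosl1, the nearest of the 10.

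The named neighbours hold some early response genes themselves. Nr4a1, an orphan nuclear receptor induced by the same signals, was nearest to Egr1 (0.64, where the median of all genes was 1.32) and second nearest to Fosb (0.65), and Nr4a2 was second nearest to Egr1 (0.75). Gdf15, a stress-induced cytokine, was nearest to Fosb at 0.58. Thbd was nearest to Egr2 at 0.46, followed by Arc at 0.49 and Hbegf at 0.50. Ppp1r15a and Vegfa were among the 5 nearest to Dusp1 at 0.44 and 0.41. The nearest genes to Jun were Nhsl1 at 0.18 and Bok at 0.26, to Fosl1 Dlg5 at 0.30 and Trp53bp1 at 0.31, to Junb Srsf5 and Fbxw9 at 0.30, and to Atf3 Unc5c and Nrip3 at 0.53. The levels of Ier2 were nearest to those of Ppp1r10 at 0.29, and those of Fos to Wars2 at 0.48. These neighbours are named from the same 13 arrays, and a gene of small spread lies near many others.

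**Figure D4:**
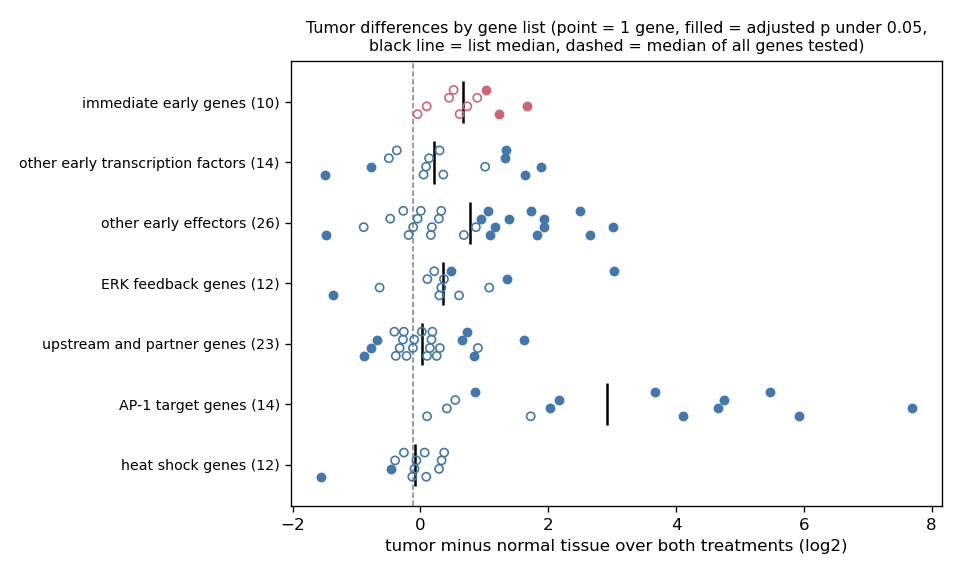
Tumor minus normal tissue over both treatments, on the log2 scale, for the 10 immediate early genes and 6 related gene lists with the number of genes tested. Each point is a gene, filled where the adjusted p was under 0.05, black lines are list medians, and the dashed line at -0.11 is the median of all genes. The AP-1 target genes reach furthest, with a median of 2.92.

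Other genes of the early response were read from lists chosen with earlier results of these data known, so they are described and support nothing. Of 14 other early transcription factors tested, 4 were called higher in tumors and 2 lower, and the list median was 0.22. Nr4a2 rose by 1.88, the repressor Nfil3 by 1.63, the cyclic AMP responsive Crem by 1.35 and the growth regulator Myc by 1.32 on the log2 scale. Klf4, a factor of differentiated epithelium, fell by 1.49, and Jund, the Jun protein that restrains growth, fell by 0.77. Nr4a1, named above as a neighbour of Egr1, stood at 1.01 (adjusted p = 0.128). Egr3, Egr4 and Nr4a3 were well above background on at most 1 of the 13 arrays and were not tested.

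Of 26 other early effector genes, 12 were called higher and 1 lower, with a list median of 0.77. The cyclooxygenase gene Ptgs2 rose by 3.02, Ier3 by 2.65, the Wnt- and ERK-responsive Phlda1 by 2.51 and Socs3, a brake on cytokine signalling, by 1.94. Ier5l rose by 1.94, the matrix proteins Cyr61 by 1.83 and Ctgf by 1.39, and tissue factor (F3) by 1.73. Arc rose by 1.17, Plk2 by 1.09, Gadd45g by 1.06 and Rhob by 0.95, while the kinase gene Sgk1 fell by 1.47. In the microRNA mice alone, where 0 of the 10 immediate early genes were called, 7 of these 26 effectors were: Ier3, Cyr61, Ctgf, Plk2, Ptgs2, Phlda1 and F3, with differences of 1.70 to 3.62.

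Of 12 feedback genes of the ERK pathway, 3 were called higher and 1 lower. The ERK phosphatase Dusp4 rose by 3.03, the ETS factor Etv4 by 1.36 and Spred1 by 0.48, and Etv1 fell by 1.36. Among 23 kinases, ternary complex factors and dimerization partners upstream of or beside the 10 genes, 4 were called higher and 3 lower, with a median of 0.02. The ternary complex factor Elk3 rose by 1.61 and Elk4 by 0.83, Mapk8, which encodes a Jun kinase, rose by 0.65, and Elk1 fell by 0.68.

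Of 14 genes known as AP-1 targets, 10 were called higher and 0 lower, with a median of 2.92. The matrix metalloproteinase gene Mmp10 rose by 7.70 (SE 0.59), the cytokine gene Il11 by 5.93 (SE 0.42), Mmp13 by 5.47 (SE 0.45) and the inhibitor Timp1 by 3.67 (SE 0.32) on the log2 scale, each beyond its spread between arrays. Several of these genes are also made by stromal and inflammatory cells, and the part of those cells was not tested. Mmp10 and Il11 were well above background on only 2 of the 4 normal arrays, so the size of their differences is uncertain.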

How the data were processed

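RNA of 13 colorectal samples was hybridised to 1-colour Agilent mouse arrays (Cy3). The authors deposited scanner files of fluorescence intensity, extracted with Feature Extraction 10.7.3.1 per the file headers, and the deposited series table held the same processed signals. The 13 files gave 55681 probes after control spots were dropped. Spots flagged as outliers were left out, spots of a probe were averaged, and log2 of the deposited processed signal minus log2 of the array's 75th percentile was taken. Probes well above background on at least 2 arrays were kept, and each gene was read by its brightest probe, leaving 25402 genes. These were tested with limma 3.58.1 in R 4.3.3, with Benjamini-Hochberg adjustment over all of them. Called means an adjusted p under 0.05. The tumor difference over both treatments came from an additive model of tissue and treatment, and all other comparisons from a model of 4 group means. The fits were tested on simulated data. The number of arrays limits the precision.

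The members and lists were chosen with earlier results of these data known. Named were all 10 members, up to 4 genes with the smallest p of each list, any called gene of the lists of other early genes, the 5 nearest genes of each member, and label checks. Alternatives were background correction, normalization between arrays, the filter, the probe rule, the variance estimate, the arrays in the fit, slide, file-name number, a replicate block and leaving out each array. Numbers of replicates do not state shared animals, and contrasts share arrays, so they were not correlated with each other.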

Additional observations from a re-analysis of the deposited data

Results flagged for a closer look

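The Fosl1 level of control tumor 5, -3.31, stood apart from the other 6 control tumors, the lowest of which was -2.56. By Dixon's test its gap was 0.597 of the group's range, above the critical value of 0.568. Chance alone flags some groups at this 95% limit, and 10 genes were examined in this way. Control tumor 5 was also the lowest control tumor for Fosb, Jun, Junb, Egr1, Atf3 and Dusp1, none of which passed the same limit.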

How the results depend on the processing

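Of the counts of called immediate early genes, those for the microRNA effects in tumors and in normal tissue and for the difference between tumor effects were 0 under every alternative run. Without scaling between arrays, 9 genes were called over both treatments, 8 in control mice and 1 in microRNA mice, with all-gene medians of 0.89, 0.96 and 0.76. Of all 25402 genes, 15261 were called there over both treatments and 12540 in control mice. In microRNA mice 2916 of all genes were called higher and 164 lower. With normexp background correction the Fosl1 difference was -0.04. On slide 1 alone, which holds 1 normal sample, the differences were 0.49 for Fosl1, 0.65 for Jun and 1.34 for Egr1. Each is only microRNA tumor 2 against microRNA normal 2, since no control normal sample lies on that slide. On slide 2 alone 0 of the 10 genes were called over both treatments, beside 4945 of all genes. Each slide holds fewer arrays, and the cause was not tested further. Leaving out 1 array gave 1 to 4 genes called over both treatments, beside 3767 to 8672 of all genes. In the other comparisons some of these fits leave 1 sample in a group, so their counts are not compared here. With a replicate block on the 8 arrays numbered 1 or 2, 1 gene was called over both treatments, Egr2, and Fosl1 (adjusted p = 0.0511), Jun (0.0762) and Egr1 (0.0685) were not. On the same arrays without the block 2 were called, Fosl1 and Egr2, and all genes called were 2845 with the block and 3636 without it. Same-numbered samples deviated together with a correlation of 0.42 between normal tissue and tumors of microRNA mice. There the replicate number goes with the file-name number and the slide, so slide and a shared animal cannot be told apart. Between the other pairs of groups the correlations ran from -0.19 to 0.09. No label says that the numbers mark an animal, and they were not taken as a pairing in the main fits. The dim Fosl1 probe, at 9.93 to 122 intensity units, limits how well its difference can be measured.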
